A study of Mus musculus with 4 samples.

Results

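*Cyp2a5*, the other *Cyp2a* and *Cyp2b* genes of the same chromosome 7 cluster (*Cyp2a4*, *Cyp2a12*, *Cyp2a22*, *Cyp2b9*, *Cyp2b10* and *Cyp2b13*) and *Por*, the gene of NADPH-cytochrome P450 reductase, were examined in mouse liver. They are 8 of the 35739 genes in the abundance table and were taken by symbol. The set was chosen by the KO and WT values of these same libraries, so the differences of its genes between genotypes are given below as descriptions, without a test. Liver RNA-seq covered 2 libraries per genotype, which the labels number 2 and 3 for WT and 1 and 3 for *Usp21* KO. The KO mice lack exons 3 and 4 of *Usp21*, a gene for a deubiquitylase, in all tissues and not in hepatocytes alone, and the comparison asks which liver genes depend on it. Per the study's methods, the mice were littermates of 10 to 11 weeks on a mixed B6 and 129/Sv background, kept on a normal diet with 12 h of light. Neither the sex nor the clock time of collection was given in the sources used here.

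Cytochrome P450 enzymes of the endoplasmic reticulum oxidise drugs, steroids and other small molecules, and they need electrons that the flavoprotein POR passes to them from NADPH. In mouse liver, CYP2A5 is known as the coumarin 7-hydroxylase and also acts on nicotine, while the near-identical CYP2A4 is known as a testosterone 15-alpha-hydroxylase that is higher in females. *Cyp2b10* is the classical gene induced through the receptor CAR by phenobarbital, and *Cyp2b9* and *Cyp2b13* are known as female-predominant liver genes.

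The first set of sequences shows how alike *Cyp2a4* and *Cyp2a5* are just before their start sites, since the genes had very different levels. Both stretches are 216 bases on the forward strand of chromosome 7, from RefSeq on GRCm38.p6, and lie outside the GENCODE exons of the genes. They are at chr7:26306943-26307158 for *Cyp2a4* and chr7:26835089-26835304 for *Cyp2a5*. Capitals mark the 4 bases that differ, which from 1 at the 5′ end, *Cyp2a5* first, are T18C, C130T, A160G and T204G.
Cyp2a4: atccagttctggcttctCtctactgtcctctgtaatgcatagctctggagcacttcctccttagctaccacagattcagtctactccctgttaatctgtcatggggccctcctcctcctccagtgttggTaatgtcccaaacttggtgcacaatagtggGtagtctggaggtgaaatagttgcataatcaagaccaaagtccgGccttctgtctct
Cyp2a5: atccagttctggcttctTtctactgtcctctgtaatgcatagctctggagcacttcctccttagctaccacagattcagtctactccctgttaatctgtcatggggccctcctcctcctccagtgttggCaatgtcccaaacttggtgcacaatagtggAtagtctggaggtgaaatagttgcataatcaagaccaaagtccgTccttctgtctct

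The second set is the stretch of 60 coding bases (positions 596 to 655 of the coding sequence) where the transcripts of the genes differ most, and it shows how few letters separate their reads. It lies in exon 4 of both genes except for its last base, which is the first of exon 5. In GRCm38 it covers chr7:26309030-26309088 and base 26310706 for *Cyp2a4*, and chr7:26837193-26837251 and base 26838868 for *Cyp2a5*. Capitals mark the 4 bases that differ here.
Cyp2a4: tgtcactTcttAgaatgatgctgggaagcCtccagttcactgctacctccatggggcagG
Cyp2a5: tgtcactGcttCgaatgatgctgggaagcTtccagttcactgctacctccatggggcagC

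Over the whole coding sequence of 1482 bases, *Cyp2a4* and *Cyp2a5* differed at 23 bases (98.4% identity), and the longest run without a difference was 216 bases. *Cyp2a12* and *Cyp2a22* were the other close *Cyp2a* pair, with 45 differences in 1476 bases (97.0%). Across these pairs the identity was between 74.9% and 76.0%. Among the *Cyp2b* genes, *Cyp2b9* and *Cyp2b13* were the closest (92.7%), followed by *Cyp2b10* with *Cyp2b13* (87.1%) and with *Cyp2b9* (86.2%). Since TPM (a transcript abundance corrected for transcript length and scaled to an equal total) comes from a program that splits reads between similar transcripts, the share of each gene's 31-base words found in the transcripts of other genes was counted. It was 54.6% for *Cyp2a5*, 58.9% for *Cyp2a4*, 34.5% for *Cyp2a12*, 34.6% for *Cyp2a22*, 26.1% for *Cyp2b9*, 19.4% for *Cyp2b10* and 40.8% for *Cyp2b13*. All 4011 words of *Por* were its own. The levels of the *Cyp2a* and *Cyp2b* genes are therefore uncertain to the extent that reads were split, and that of *Por* is not affected in this way.

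*Cyp2a5* (ENSMUSG00000005547) lies on the forward strand of chromosome 7 from 26835305 to 26843548 (GRCm38) and has 9 exons. It had 495 and 616 TPM in WT 2 and WT 3 but 222 and 177 TPM in KO 1 and KO 3, so that the genotypes did not overlap. The mean was 555 ± 85.7 TPM in WT against 199.9 ± 31.8 TPM in KO (SD, n = 2), which is 36.0% of WT. On the log2(TPM + 1) scale the fold change was -1.47 (standard error 0.21), or -1.62 relative to the median of all tested genes. Standard errors here and below are from limma, which moderates the variance of each gene by that of all tested genes.

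*Por* (ENSMUSG00000005514) lies on chromosome 5 from 135670033 to 135735326, away from the *Cyp2* cluster, and its main transcript has 16 exons. It had 175 and 168 TPM in WT against 81.8 and 81.4 TPM in KO. The genotypes did not overlap, and the libraries within a genotype were close together. The mean was 171 ± 5.34 TPM in WT and 81.6 ± 0.308 TPM in KO (SD, n = 2), or 47.6% of WT (log2 change -1.06, SE 0.16).

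*Cyp2a12* (chromosome 7, 27029081 to 27037375), whose product is a steroid hydroxylase, had 321 and 331 TPM in WT against 310.4 and 292 TPM in KO. The KO values were below the WT values, but the mean in KO was 92.4% of that in WT. The log2 fold change was -0.11, with a moderated standard error of 0.16 and a replicate SD of 0.048 on that scale. *Cyp2b10* (chromosome 7, 25897620 to 25926624) was low, with 2.20 and 1.46 TPM in WT against 4.44 and 2.41 TPM in KO. Its KO values were the higher ones, by a small margin between WT 2 and KO 3, and the log2 fold change was 0.62 (standard error 0.33). A pseudocount of 5 in place of 1 gave 0.29, and a pseudocount of 0.1 gave 0.83.

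The other 4 genes were at or near 0. *Cyp2a22* had 1.07 and 0.491 TPM in WT against 0.507 and 0 TPM in KO. *Cyp2a4* had 0.198 and 0.132 TPM in WT against 0.594 and 0 TPM in KO. *Cyp2b9* had 0.691 and 0 TPM in WT against 0 and 0.261 TPM in KO. *Cyp2b13* was listed at 0 in all 4 libraries. The genotypes overlapped for each of these 4 genes, and no fold change is given for them. They did not pass the filter of a mean of at least 1 TPM, which 4 of the 8 genes passed.

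**Figure D1:**
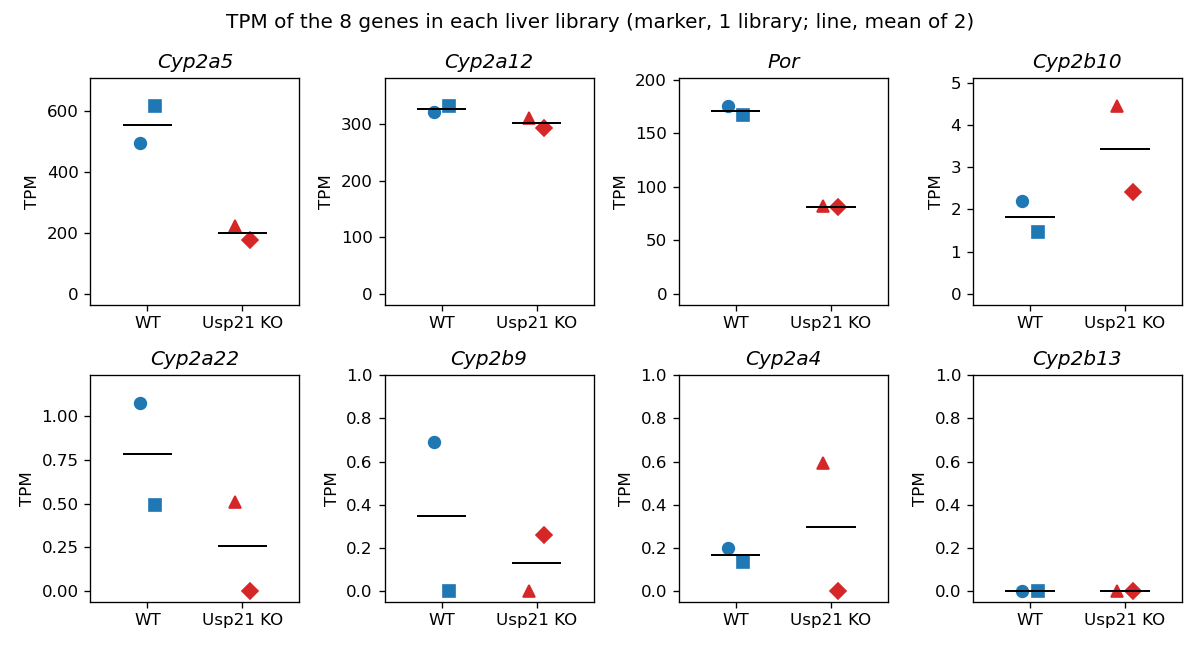
TPM (vertical axis, a scale of its own in each panel) of the 8 genes by genotype, where each marker is 1 liver library (circle WT 2, square WT 3, triangle KO 1, diamond KO 3) and the line is the mean of 2. Cyp2a5 and Por lie lower in both KO libraries, Cyp2a12 lies between 292 and 331 TPM throughout, and the lower row holds the 4 genes near 0.

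In order of the mean TPM over the 4 libraries, *Cyp2a5* (378) was followed by *Cyp2a12* (314), *Por* (127), *Cyp2b10* (2.63), *Cyp2a22* (0.518), *Cyp2b9* (0.238), *Cyp2a4* (0.231) and *Cyp2b13*. The first places depended on the genotype, since *Cyp2a5* was above *Cyp2a12* in both WT libraries and below it in both KO libraries. *Por* was below *Cyp2a12* in every library and below *Cyp2a5* in every library. The ranges of *Cyp2a22*, *Cyp2b9* and *Cyp2a4* overlapped, so their order is not resolved.

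Of the 4 genes that passed the filter, 3 had both KO libraries below both WT libraries (*Cyp2a5*, *Cyp2a12* and *Por*), where 10.9% of the 9581 tested genes did. The remaining 1 (*Cyp2b10*) had both above, where 34.4% did. With no filter these shares were 9.33% and 28.9% of 15061 genes. *Cyp2a5* and *Por* were at least 2-fold lower on the log2(TPM + 1) scale, as 1.10% of tested genes were. As the set was selected on this contrast, nothing is read from these counts. The smallest p of an exact permutation test on a single gene here is 0.333, since each genotype has 2 libraries. All tested genes together had a median log2 fold change of 0.15, and with each library scaled to an equal upper quartile it was 0.07. It was between 0.08 (without KO 1) and 0.22 (without KO 3) when a library was left out. Of the genes whose groups did not overlap, 24.1% were lower in KO (1046 lower and 3292 higher), and 37.9% under upper quartile scaling (1545 lower and 2531 higher). That scaling gave -1.57 for *Cyp2a5*, -1.16 for *Por*, -0.21 for *Cyp2a12* and 0.55 for *Cyp2b10*. When libraries were left out singly, the log2 fold change ran from -1.63 to -1.31 for *Cyp2a5*, from -1.09 to -1.03 for *Por*, from -0.16 to -0.07 for *Cyp2a12* and from 0.28 to 0.96 for *Cyp2b10*.

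A table of reads counted per gene, scaled by the authors as TMM-normalized CPM, gave no usable second measurement of these genes. The reads it holds, recovered from its steps, numbered 148164 and 110427 in the WT libraries and 145306 and 102898 in the KO libraries. It held 3 and 0 reads for *Cyp2a5* in WT, and 1 and 0 reads in KO, and listed the other 7 genes at 0 throughout. Of the 682 genes at 100 TPM or more in all libraries that were found in it, 428 were listed at 0 in all libraries. Over the 641 tested genes above 0 in all its columns, the direction of the difference between genotypes was the same as in TPM for 50.7%, and the log2 fold changes of the tables had a Spearman rho of 0.01 across genes, which are not independent and share the libraries. All levels below are TPM, and how the tables came to differ was not tested. TPM keeps no record of depth, so no counting interval can be given.

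Hepatocyte markers were abundant, as the tissue label says. Beside the counts of markers below, 10.9% of all tested genes were lower in KO without overlap and 34.4% were higher. The 7 hepatocyte markers found (*Alb*, *Apoa1*, *Ttr*, *Serpina1a*, *Ass1*, *Fgb* and *Cps1*) were above 0 in all libraries and summed to between 49865 and 72352 TPM. The Kupffer cell markers (*Clec4f*, *Cd5l*, *Vsig4*, *Timd4*, *Marco* and *Adgre1*) summed to between 51.6 and 135 TPM, with 0 of 6 separating the genotypes. The sinusoidal endothelial markers (*Clec4g*, *Oit3*, *Stab2*, *Kdr* and *Lyve1*) summed to between 32.8 and 50.7 TPM, with 1 of 5 (*Lyve1*) higher in KO without overlap. The erythroid markers (*Hbb-bs*, *Hba-a1* and *Alas2*) summed to between 437 and 598 TPM, with 1 of 3 (*Hba-a1*) lower. Among the lists of liver cell types, those of stellate cells and cholangiocytes had sums that separated the genotypes. Stellate cell markers (*Dcn*, *Reln*, *Lrat*, *Des* and *Col1a1*) summed to 53.5 and 41.4 TPM in WT against 77.5 and 59.97 TPM in KO, and 2 of the 4 tested (*Dcn* and *Reln*) were higher without overlap. Cholangiocyte markers (*Spp1*, *Sox9*, *Krt19*, *Epcam* and *Krt7*) summed to 14.6 and 15.9 TPM in WT against 37.9 and 24.5 TPM in KO, mostly *Spp1*. Of the 5 exocrine pancreas markers 4 (*Cpa1*, *Prss2*, *Ctrb1* and *Pnlip*) were at 0 throughout. The fifth, *Cela1*, was lower in KO without overlap by a small margin, at 42.2 and 30.7 TPM in WT against 28.7 and 30.6 TPM in KO. The kidney proximal tubule markers *Lrp2*, *Slc34a1*, *Umod* and *Kap* were at 0 in WT and summed to 0.0273 and 0.0471 TPM in KO, which is near 0. The part of these markers in any result was not tested, and in bulk liver fewer cells of a type and less RNA per cell cannot be told apart. The transcripts of the Y-linked genes *Eif2s3y*, *Ddx3y*, *Uty* and *Kdm5d* were above 0 in all 4 libraries and summed to between 22.1 and 49.6 TPM. Each library thus held RNA from male mice, although the sources do not state the sex. *Usp21* itself had 4.07 and 6.29 TPM in WT against 1.64 and 2.93 TPM in KO (log2 change -0.92, limma adjusted p = 0.464). The groups did not overlap, although the exons outside the deletion can still give reads.

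The stretch of chromosome 7 taken as the cluster held 12 protein-coding *Cyp2* genes and 3 pseudogenes in the table, over 1261 kb from 25897620 to 27158668. *Cyp2s1*, from 25802475 to 25816913, lies just outside this stretch, was not counted and had at most 0.116 TPM. Only *Cyp2a5*, *Cyp2a12* and *Cyp2f2* of the 12 coding genes in the stretch reached 100 TPM in all libraries, and *Cyp2b13*, *Cyp2b19*, *Cyp2b23* and *Cyp2t4* were at 0 in all of them. *Cyp2f2*, which encodes a naphthalene-oxidising enzyme and begins 284.6 kb past the *Cyp2a5* start, had 583 and 462 TPM in WT against 515 and 653 TPM in KO, so that its genotypes overlapped (log2 change 0.16, SE 0.22). *Cyp2g1*, 26.4 kb before *Cyp2a5* and best known from the olfactory mucosa, had 3.44 and 0.593 TPM in WT against 0.866 and 0.866 TPM in KO, which also overlapped. The pseudogene *Cyp2a21-ps*, which shared 23.4% of the words of *Cyp2a5*, had 0.142 and 0.349 TPM in WT against was listed at 0 in both KO libraries. The pseudogenes *Cyp2b26-ps* and *Cyp2b27-ps* were at 0.

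**Figure D2:**
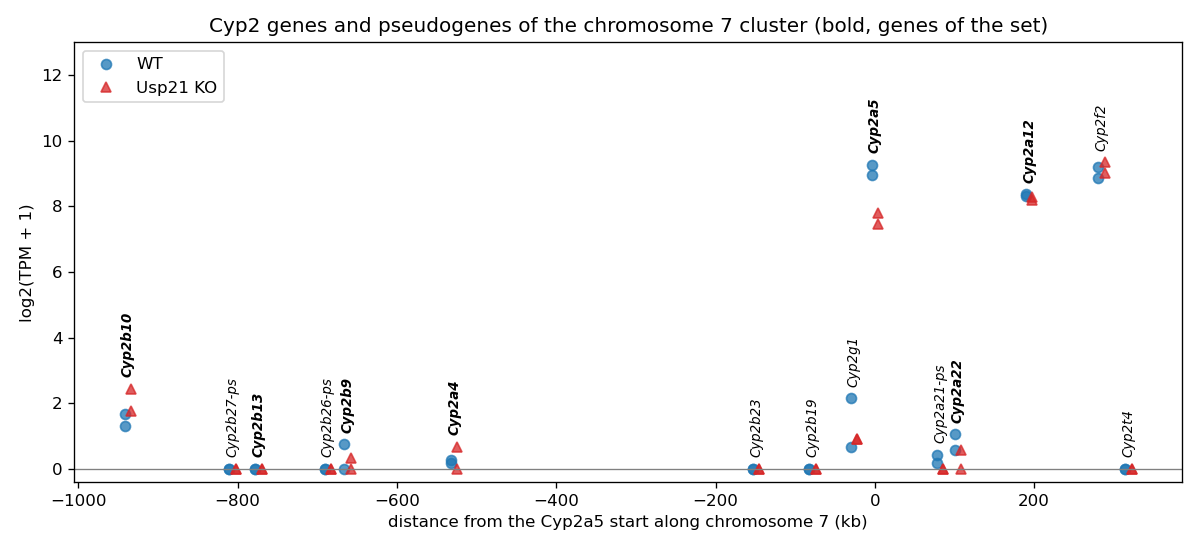
Level of each Cyp2 gene and pseudogene of the chromosome 7 cluster as log2(TPM + 1) (vertical axis) against its distance in kb from the Cyp2a5 start (horizontal axis), with 1 marker per library (blue circles WT, red triangles Usp21 KO, set slightly apart sideways). Cyp2a5, Cyp2a12 and Cyp2f2 stand high and Cyp2a5 has its KO markers below its WT markers, while most of the cluster lies at or near 0.

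Ratios within a library do not depend on how libraries were scaled to each other. *Cyp2a5* was 1.54 and 1.86 times *Cyp2a12* in the WT libraries and 0.716 and 0.607 times in the KO libraries. *Cyp2a5* made up 60.5% and 65.0% of the summed TPM of the 4 *Cyp2a* genes in WT, and 41.7% and 37.8% in KO. That sum was 817 and 948 TPM in WT against 534 and 469.7 TPM in KO, and *Cyp2a4* and *Cyp2a22* added little to it. The summed TPM of the 3 *Cyp2b* genes was 2.89 and 1.46 in WT and 4.44 and 2.67 in KO, with overlapping genotypes.

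*Por* serves all microsomal P450 enzymes, so its level was set against the summed TPM of the 76 protein-coding *Cyp1* to *Cyp4* genes in the table. This sum was 17169 and 12754 TPM in WT against 12279 and 14047 TPM in KO, and the genotypes overlapped. *Por* came to 1.02% and 1.31% of it in WT and to 0.666% and 0.579% in KO, or 98.0 and 76.1 TPM of P450 transcripts per TPM of *Por* in WT against 150.1 and 173 in KO. The ratio of *Por* to *Cyp2a5* was 0.354 and 0.272 in WT and 0.368 and 0.459 in KO, which separates the genotypes by a small margin, and the ratio to *Cyp2a12* was 0.546 and 0.506 in WT and 0.264 and 0.278 in KO.

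**Figure D3:**
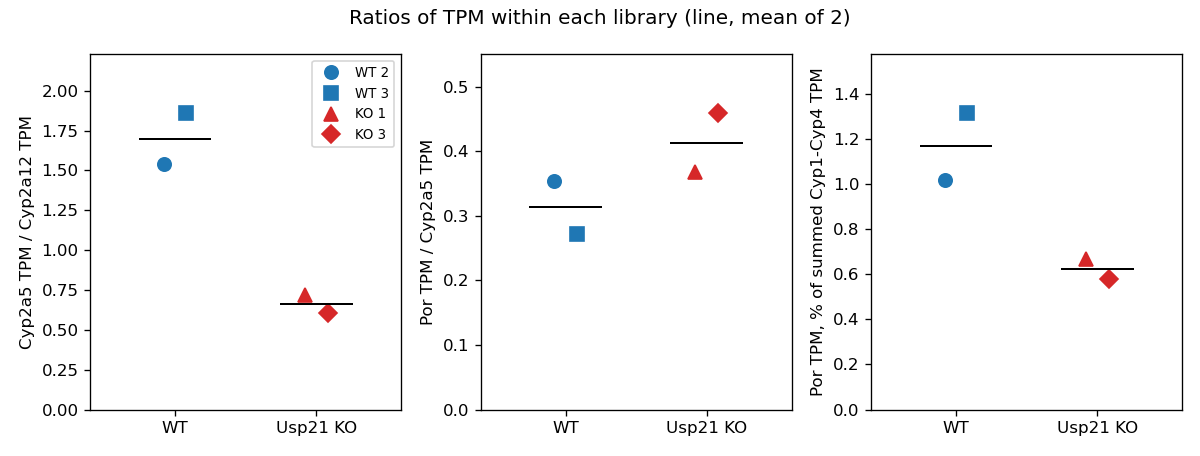
Ratios of TPM within each library by genotype: Cyp2a5 to Cyp2a12 (left), Por to Cyp2a5 (middle) and Por as a percent of the summed Cyp1 to Cyp4 TPM (right), with 1 marker per library and the mean of 2 as a line. The first is 1.54 and 1.86 in WT and 0.716 and 0.607 in KO, and the last 1.02% and 1.31% in WT and 0.666% and 0.579% in KO.

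Among the 42 other protein-coding *Cyp2* genes of the genome, 25 were tested. Of these, 5 had both KO libraries lower and 5 had both higher, where the shares over all tested genes were 10.9% and 34.4%, and 0 had an adjusted p under 0.05 by limma, where 0.0835% of all tested genes did (8 genes). Their median log2 fold change was -0.08, and they ran from -0.84 for *Cyp2d40* to 1.25 for *Cyp2c40*. None of the 25 was at least 2-fold lower.

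POR is not the only redox partner of the P450 enzymes, and the other electron donors and the heme pathway were listed with it. Of the 18 other genes, all tested, 4 had both KO libraries lower (22.2%, against 10.9% of all genes) and 0 had both higher (against 34.4%). None passed the adjusted threshold in limma. Their median log2 fold change was -0.06, and -0.15 without WT 2 and -0.03 without WT 3. *Cyb5a*, which encodes cytochrome b5, had 1447 and 1673 TPM in WT against 1351 and 1300.5 TPM in KO (log2 change -0.23, SE 0.19). *Pgrmc1*, a heme-binding partner of P450 enzymes, had 752 and 766 TPM in WT against 676 and 736 TPM in KO (-0.11, SE 0.17). *Ppox*, which encodes protoporphyrinogen oxidase of heme synthesis, was the lowest of the list by fold change, at 3.79 and 5.58 TPM in WT against 4.53 and 2.08 TPM in KO, with overlapping genotypes. *Ppox* lies on chromosome 1 from 171275990 to 171281186, beside the altered *Usp21* (171281945 to 171287991). The part of that position in its level was not tested. *Fdxr*, the reductase of the mitochondrial P450 enzymes, was the highest, at 4.23 and 6.15 TPM in WT against 6.50 and 5.82 TPM in KO, also overlapping. The log2 fold changes of these 18 genes lay between -0.44 and 0.23.

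The transcription factors DBP, TEF and HLF, a family of circadian bZIP proteins (the PAR bZIP factors), are known to act on *Cyp2a4*, *Cyp2a5* and *Por* in mouse liver, and NFIL3 binds the same DNA sites as a repressor. *Dbp* had 56.8 and 41.3 TPM in WT against 4.73 and 4.97 TPM in KO, a log2 change of -3.08 (SE 0.23; Benjamini-Hochberg adjusted p = 0.0193 in limma). The genotypes were far apart, and this was the 1 gene of 176 tested list genes that passed the adjusted threshold. Without WT 3 or without KO 1 it did not pass. In the CPM table, *Dbp* had 2 and 1 reads in WT and 7 and 3 reads in KO, which is the opposite direction at a handful of reads.

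*Tef* had 17.0 and 21.3 TPM in WT against 8.23 and 9.00 TPM in KO (log2 change -1.06, SE 0.21). *Hlf* had 7.43 and 7.02 TPM in WT against 4.32 and 4.37 TPM in KO (-0.62, SE 0.22). *Nfil3* had its higher values in KO, with 3.86 and 8.13 TPM in WT against 17.0 and 24.5 TPM in KO (1.69, SE 0.36). None of these 3 genes passed the adjusted threshold (adjusted p = 0.402, 0.464 and 0.436 in limma), and each was without overlap between genotypes. All 3 were listed at 0 in the CPM table. Whether these factors had a part in the levels of *Cyp2a5* and *Por* was not tested.

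The list of 21 nuclear receptors and hepatocyte factors that act on *Cyp2a* or *Cyp2b* genes had 20 tested genes, of which 1 had both KO libraries lower (5.0%, against 10.9% of all tested genes) and 5 had both higher (25%, against 34.4%). Their median log2 fold change was 0.13 beside 0.15 for all tested genes, and it was 0.46 without KO 3 and -0.06 without KO 1. *Hnf4a*, a receptor that drives many hepatocyte genes, had 112 and 105 TPM in WT against 171 and 155 TPM in KO (log2 change 0.58). *Cebpa*, a bZIP factor of hepatocytes, had 139.5 and 101 TPM in WT against 161 and 86.7 TPM in KO, with overlap. *Nr1i3*, which encodes CAR, was the 1 gene lower in both, at 38.9 and 42.1 TPM in WT against 34.9 and 26.5 TPM in KO (-0.40). It lies on chromosome 1 from 171213970 to 171220701, near the altered *Usp21* (171281945 to 171287991). The part of that position in its level was not tested. *Foxa1*, a pioneer factor, had the highest fold change, at 2.53 and 1.61 TPM in WT against 8.97 and 3.01 TPM in KO (1.06). No gene of the list passed the adjusted threshold.

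Genes known to be induced through CAR or PXR, the receptors that also induce *Cyp2b10*, had fold changes of both signs. Of the 33 tested, 5 had both KO libraries lower (15.2%, against 10.9% of all tested genes) and 8 had both higher (24.2%, against 34.4%). Their median was -0.13, which became 0.05 without WT 2, -0.24 without WT 3, and -0.09 without either KO library. *Cyp3a11*, the main PXR target, had 2959 and 2491 TPM in WT against 3014 and 3547 TPM in KO, and *Gstm1* had 2032 and 1735 TPM in WT against 1670 and 1768 TPM in KO. The extremes were *Gstt3* (-0.83), a glutathione transferase, and *Cyp2c55* (1.2), a P450 that drugs induce. Of 26 tested targets of NRF2, the regulator of antioxidant genes, 5 had both KO libraries lower (19.2%, against 10.9% of all tested genes) and 8 had both higher (30.8%, against 34.4%), and their median of -0.04 ran from -0.05 without KO 3 to 0.07 without WT 2, at 0.03 without KO 1 and 0.00 without WT 3. *Gstp1* had 5318 and 6104 TPM in WT against 5447 and 6662 TPM in KO, and *Ftl1* had 5229 and 5214 TPM in WT against 4535 and 4450 TPM in KO. *Nqo1*, a quinone reductase, was lowest at 4.84 and 3.89 TPM in WT against 2.46 and 1.08 TPM in KO (-0.99), and *Gclc*, the rate-limiting enzyme of glutathione synthesis, was highest at 67.0 and 43.0 TPM in WT against 113 and 114 TPM in KO (1.06). No gene of either list passed the adjusted threshold.

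*Cyp2a5* is expressed around the central vein of the liver lobule. Of 20 tested pericentral genes other than the set, 10 had both KO libraries lower (50.0%, against 10.9% of all tested genes). Both KO libraries were higher in 2 of the 20 genes, against 34.4% of all tested genes. None of the 20 genes passed the adjusted threshold in limma. Their median log2 fold change was -0.36, which without WT 2 or without KO 3 was -0.20. Their part in the level of *Cyp2a5* was not tested. *Cyp2e1*, an ethanol-oxidising P450, had 4802 and 3150.0 TPM in WT against 3106 and 3041 TPM in KO, and *Cyp2c29* had 1177 and 921 TPM in WT against 466 and 926 TPM in KO. The ammonium transporter gene *Rhbg* was lowest (-0.81) and *Csad*, of taurine synthesis, was highest (1.18). Of 21 periportal genes, 0 had both KO libraries lower (against 10.9% of all tested genes) and 6 had both higher (28.6%, against 34.4%). Their median was 0.21, and it was 0.10 without KO 1, 0.14 without WT 3 and 0.40 without KO 3. *Serpina1c* had 8950 and 7344 TPM in WT against 6985 and 7551 TPM in KO, and the urea cycle gene *Ass1* had 2137 and 1960.4 TPM in WT against 3138 and 1551 TPM in KO. *Asl* was lowest (-0.38) and *Etnppl* highest (0.95) of that list.

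As *Cyp2a4*, *Cyp2b9* and *Cyp2b13* are known as female-predominant, genes with a sex bias in liver were counted too. Of the 31 other female-biased genes, 13 were tested, 3 had both KO libraries lower (23.1%, against 10.9% of all tested genes) and 3 had both higher (23.1%, against 34.4%). Their median of 0.12 became -0.49 without KO 1, -0.18 without WT 3 and 0.08 without WT 2. *Fmo1* had 129 and 132 TPM in WT against 173 and 175 TPM in KO, *Hamp2* had 39.5 and 91.3 TPM in WT against 221 and 41.6 TPM in KO, and the ends of the list were *Acot3* (-1.52) and *Cyp2c40* (1.25). Of 33 male-biased genes, 2 had both KO libraries lower (6.06%, against 10.9% of all tested genes) and 16 had both higher (48.5%, against 34.4%). Their median was 0.51, and it was 0.28 without WT 2. The urinary protein genes *Mup7* and *Mup20* had 34372 and 58123 TPM and 10129 and 21688 TPM in WT, and 13674 and 46019 TPM and 19129 and 23268 TPM in KO. *Mup1* was lowest (-1.01) and *Gstp2* highest (3.21), with 7.53 and 7.77 TPM in WT against 266 and 23.0 TPM in KO for *Gstp2*. None passed the adjusted threshold.

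**Figure D4:**
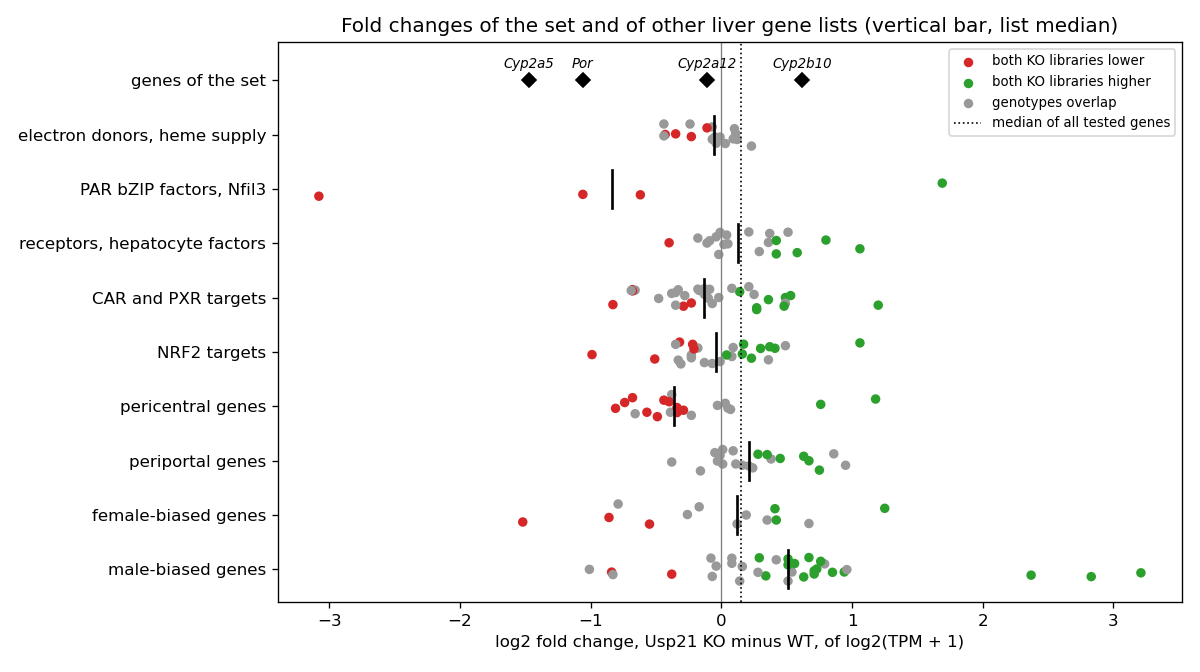
Log2 fold change, Usp21 KO minus WT, of log2(TPM + 1) (horizontal axis) for the 4 tested genes of the set (diamonds) and for other liver gene lists (1 point per gene, red where both KO libraries are lower, green where both are higher, grey where genotypes overlap; spread vertically for legibility). Bars mark list medians and the dotted line the median of all tested genes, 0.15; Dbp lies at -3.08, and the pericentral list lies to the left with a median of -0.36.

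Genes with a pattern like that of *Cyp2a5* over the 4 libraries were sought by the smallest root mean square difference of log2(TPM + 1) after subtraction of each gene's mean, among 9580 genes, whose median difference was 0.849. The closest 5 outside the set were *Srebf1* (0.0972), *Serpina3m* (0.104), *Lama4* (0.20), *Wee1* (0.202) and *Slc16a5* (0.212). *Srebf1*, a transcription factor of fatty acid synthesis, had 58.1 and 64.3 TPM in WT against 27.3 and 20.7 TPM in KO. *Serpina3m*, a serine protease inhibitor gene, had 157 and 181 TPM in WT against 61.6 and 59.3 TPM in KO. *Lama4*, a laminin chain, had 1.92 and 2.17 TPM in WT against 0.254 and 0.333 TPM in KO. *Wee1*, a kinase that restrains entry into mitosis, had 1.93 and 3.83 TPM in WT against 0.653 and 0.546 TPM in KO, and *Slc16a5*, a monocarboxylate transporter gene, had 6.28 and 7.69 TPM in WT against 2.02 and 0.803 TPM in KO. *Por* was 19th of the 9580 genes by this measure (0.269), *Cyp2a12* 1565th (0.690) and *Cyp2b10* 8421st (1.08). *Lama4* and *Wee1* were under 1 TPM in both KO libraries and passed the filter through their WT values. The KO mean was 14.4%, 20.8% and 20.2% of WT for *Lama4*, *Wee1* and *Slc16a5*, against 36.0% for *Cyp2a5*. It was 39.3% for *Srebf1* and 35.8% for *Serpina3m*. The likeness of the 3 low genes thus holds on the log2(TPM + 1) scale, which understates their fold. With 4 libraries the measure ranks patterns made mainly by the genotype difference, and it is given as a description.

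**Figure D5:**
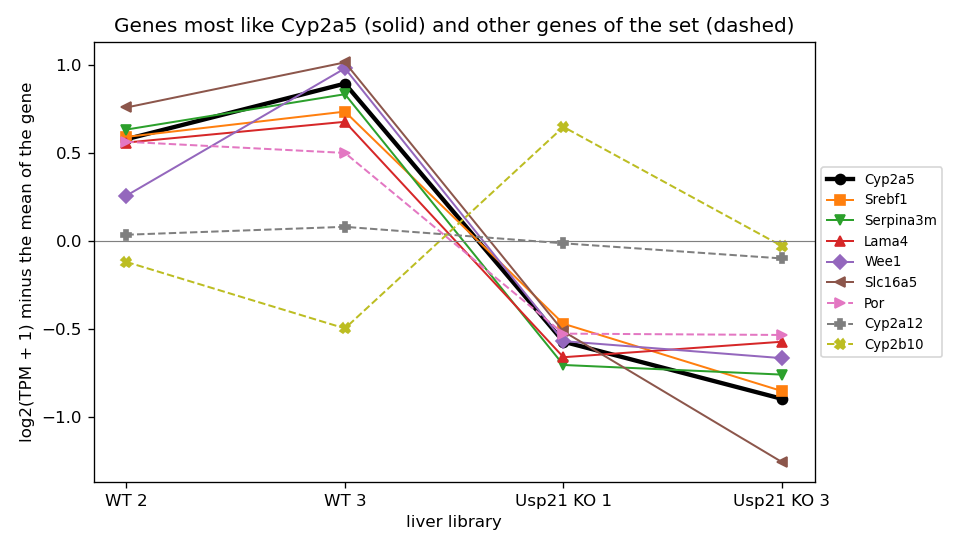
Log2(TPM + 1) minus the mean of the gene (vertical axis) in each library (horizontal axis) for Cyp2a5 (thick black), the 5 genes most like it (solid) and the other tested genes of the set (dashed); lines only join points of a gene. Srebf1 and Serpina3m run closest to Cyp2a5, Por has a smaller gap between WT and KO, and Cyp2a12 stays near 0.

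All 8 genes had an entry among 32851 RefSeq promoter windows, and the 250 bases before each start were searched on both strands for short motifs. TTGCATAA, a form bound by C/EBP and PAR bZIP proteins, was found in *Cyp2a5* (71 bases before the RefSeq start), *Cyp2a4* (70 bases) and *Cyp2b10* (58 bases), and in 0.694% of all windows. CAAAGTCC, the core of many HNF4A sites, was found in *Cyp2a5* (56 bases) and *Cyp2a4* (55 bases), and in 1.2% of all windows. These letter strings were picked after the *Cyp2a5* and *Cyp2a4* sequences had been read, and both lie in the upstream stretches printed above, in parts without a difference between the genes. TATAAA was found in all 4 *Cyp2a* genes, 28 to 39 bases before the start, and in 12.4% of windows. AGGTCA, one arm of nuclear receptor sites, was found in *Cyp2b9* and *Cyp2b13*, 138 bases before the start in each, and in 14.0% of windows.

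TTACGTAA, the palindromic form of the PAR bZIP site, and its variant TTATGTAA were in none of the 8 windows (0.113% and 0.819% of all). Nor were CACGTG of the clock factors BMAL1 and CLOCK (6.02%) and TGACNNNGC of NRF2 (10.2%). The matches did not overlap each other. A match is a description of letters and not a bound site. Over the 250 bases, *Cyp2a4* and *Cyp2a5* were 97.6% identical in an alignment and *Cyp2b9* and *Cyp2b13* 99.2%, whereas *Cyp2a12* and *Cyp2a22* were 82.8% identical and *Cyp2a5* and *Cyp2a12* 45.7%. The pair with near-identical upstream sequence, *Cyp2a4* and *Cyp2a5*, thus had levels of at most 0.594 TPM and at least 177 TPM.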

How the data were processed

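The authors estimated transcript abundance from liver RNA-seq (Illumina MiSeq) with Salmon and deposited TPM per gene. They also deposited HTSeq counts scaled as TMM-normalized CPM, which are treated here as a count-based signal. The submitters' notes name mm10, and no versions. The deposited log tables were not used. The reads behind the CPM were recovered from its steps, and 100% of values came out whole within 0.02 reads.

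Of 35739 gene identifiers, 35126 were found in GENCODE M21 (GRCm38), used for coordinates and transcripts. Upstream sequences are from RefSeq on GRCm38.p6. Coding and promoter alignments were global (Biopython 1.88).

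The 9581 genes averaging 1 TPM or more were fitted on log2(TPM + 1) with limma 3.58.1 in R 4.3.3 (trended eBayes, two-sided, Benjamini-Hochberg), KO against WT, with no covariate. The fit, edgeR 4.0.16 and DESeq2 1.42.0 were tested on simulated data. The prior degrees of freedom were 3.62. Nothing in the sources says that libraries of a genotype are more than separate samples, so p-values measure only the spread between these samples. A fold change on this scale understates that of low genes.

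The genes of the set, the other lists and the motifs were chosen with earlier results of these data known. The lists came from general knowledge. A marker list is not reported here. Named from each list were all genes where at most 8 were found, otherwise the 2 most abundant, the lowest and highest fold change, and any gene with an adjusted p under 0.05. The cluster genes, *Usp21* and the 5 genes most like *Cyp2a5* were also named. Alternatives were pseudocounts of 0.1 and 5, other filters, upper quartile scaling, unmoderated variances, the CPM, edgeR and DESeq2 on recovered reads, and each library left out.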

Additional observations from a re-analysis of the deposited data

How the results depend on the processing

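The directions of *Cyp2a5*, *Cyp2a12*, *Por* and *Cyp2b10* were the same under every alternative of the TPM that was run. A pseudocount of 5 moved *Por* to -1.03, and upper quartile scaling moved *Por* to -1.16 and *Cyp2a12* to -0.21. That scaling gave 4 genes of the set as lower without overlap, where 16.1% of all tested genes were. Leaving out a library gave 3 to 5 such genes against 3 with all libraries, with 5 without WT 3 or without KO 1, where single values near 0 decide it. The share over all tested genes rose as well, from 10.9% with all libraries to 22.2% without WT 3 and 28% without KO 1. It was 21% without WT 2 and 19.4% without KO 3. With a library left out, the log2 fold change of the summed *Cyp2a4* and *Cyp2a5* ran from -1.63 to -1.30 (-1.47 with all libraries). That of the summed *Cyp2b* genes ran from 0.20 to 0.86 (0.53).

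The 8 genes with an adjusted p under 0.05 by limma became 4 with no filter, 0 with unmoderated variances (806 at an unadjusted p under 0.05), 1 on the CPM, 1 with DESeq2 and 12 with edgeR on the recovered reads. Leaving out a library gave 0 to 7, with 0 without KO 1 (699 at an unadjusted p under 0.05) and 5 without WT 3 or KO 3. The 1 list gene (*Dbp*) became 0 with no filter, with unmoderated variances, on the CPM and with edgeR and DESeq2. The CPM, edgeR and DESeq2 runs covered 55 list genes. *Dbp* had at most 7 reads in a library there, too few for these runs to decide on it. On the CPM, 0 genes of the set were lower without overlap, where 8.98% of the genes tested there were. No fold change of the set is given there because *Cyp2a5* had at most 3 reads in a library and the others none. The cause of these changes was not tested, apart from the number of samples and genes that each alternative leaves. No paired analysis was possible because the genotypes share fewer than 2 replicate numbers. TPM keeps no record of depth, so what depth limits could not be worked out.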
